A study of Mus musculus with 2 samples.

Results

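Arginine and polyamine metabolism is described here through 10 genes, taken by name: Arg1, Arg2, Slc7a2, Odc1, Azin1, Oaz1, Sat1, Srm, Sms and Ass1. They stand among 10537 genes to which splice junctions could be assigned. The RNA came from macrophages washed out of the peritoneum of male C57BL/6JJcl mice 3 days after thioglycolate, an irritant broth that draws monocytes into the cavity, and left to adhere for 24 h. One group was kept with interleukin 10 (IL-10), a cytokine that restrains inflammatory gene expression, at 100 ng/ml for 4 h, and the other was untreated, with 1 library in each group. The labels do not say how many mice gave cells to a library, and the protocol given for the untreated cells is a copy of the one for treated cells, so the titles define the groups. Differences therefore compare 2 libraries and have no replicate check, and every interval below covers counting error only. The library insert length also differed between the groups, 188 bp with IL-10 and 197 bp untreated, and its part was not tested.

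Macrophages take up arginine through cationic amino acid transporters and split it with arginase into urea and ornithine, or oxidise it to nitric oxide and citrulline with inducible nitric oxide synthase. Ornithine decarboxylase makes putrescine from ornithine, and spermidine synthase and spermine synthase extend it to the larger polyamines. The pathway is controlled by antizyme, which carries ornithine decarboxylase to the proteasome, by the antizyme inhibitor, which releases it, and by spermidine/spermine acetyltransferase, which marks polyamines for breakdown or export. Arginase 1 is a classic marker of macrophages activated by interleukin 4.

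The deposited values are numbers of reads that cross a splice junction, so a gene is seen only through its introns. The IL-10 library held 3998954 such reads and the untreated library 4035991. Of these, 3837953 and 3866130 lay on introns that belong to 1 named gene, and they served as the totals for shares. A gene was counted where at least 2 of its introns could be matched. Of 8 macrophage markers 7 were counted, with 59782 reads after IL-10 and 76657 in untreated cells, the most on the lysozyme gene Lyz2. By the 2-fold rule given below 0 of the 7 were called, but 4 had intervals below a ratio of 1 and 2 above. Those below were Lyz2 (ratio 0.712, 0.702 to 0.723), Csf1r (0.860), Mertk (0.863) and Cd68 (0.868). Those above were Itgam (1.32) and Fcgr1 (1.21). The eighth, Cd14, had 244 and 207 reads on a lone matched intron. Of 8 neutrophil markers 2 were counted (542 and 488), S100a8 had 26 and 22 reads on a lone matched intron, and Ly6g, S100a9, Ngp and Camp were at 0. The B cell list had 489 and 545 reads, mostly on Cd22, and the T and NK cell list 4 and 0. The dendritic cell list had 6969 and 6404, almost all on Itgax, with 11 and 1 on Cd209a, and the fibroblast and mesothelial list 1270 and 1159. Less RNA per cell and fewer cells of a type cannot be told apart in such libraries.

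Of the 10 genes, Arg1 was the single gene that differed by 2-fold. It had 276 reads with IL-10 and 80 without, and all of its introns were higher in the IL-10 library. The antizyme inhibitor gene Azin1 and the acetyltransferase gene Sat1 had intervals below a ratio of 1 but lay within 1.5-fold. Arg2, the transporter gene Slc7a2 and the spermidine synthase gene Srm had intervals that included 1. Odc1, Oaz1, Sms and Ass1 had 0 to 5 reads in each library and could not be compared. Calls needed 20 or more reads in the 2 libraries together, a 2-fold difference in share either way, and a 95% interval that excluded 1. By this rule 1 of the 6 genes with enough reads was higher and 0 were lower, where 1.75% of 8359 genes were higher and 1.5% were lower (3.24% either way). The median log2 ratio of the 6 genes was 0.26, against -0.00099 over all genes tested. That median lay between Slc7a2 and Srm, whose intervals included 1, and does not show a shift shared by the 6 genes.

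The exon joins that the reads crossed are printed for Arg1, whose difference leads the results. Each line is 40 bases of the full-length spliced transcript in GENCODE M21 (GRCm38, minus strand of chromosome 10), 5′ to 3′ and within the coding sequence, and the capitals are the 2 bases on each side of the join. Join 2 carried the most reads of the gene, join 5 the smallest ratio and join 6 the largest.
Arg1 join 2: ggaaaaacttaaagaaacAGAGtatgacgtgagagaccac
Arg1 join 5: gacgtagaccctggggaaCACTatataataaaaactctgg
Arg1 join 6: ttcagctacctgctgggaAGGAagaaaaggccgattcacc

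Arg1 (ENSMUSG00000019987.9) encodes the cytosolic arginase. Its introns span positions 24635586 to 24647117 of chromosome 10 in mm9, the build of the deposited lists. The share of reads on Arg1 was 3.48-fold higher in the IL-10 library (95% interval 2.70 to 4.52). All 7 introns of the transcript had reads in both libraries, and on all 7 the IL-10 library stood higher. Intron 2 had 66 reads after IL-10 and 18 in untreated cells (ratio 3.69, 2.17 to 6.61). Intron 6 had 57 and 9 (6.38, 3.14 to 14.7), and intron 5 had 24 and 12 (2.01, 0.969 to 4.42), the lone Arg1 intron whose interval included 1. The intervals of introns 5 and 6, which had the smallest and the largest ratio, overlapped. The other introns had 27 and 7 reads (intron 1), 17 and 3 (intron 3), 43 and 11 (intron 4) and 42 and 20 (intron 7). By the same rule applied to single introns with at least 20 reads, 6 of the 7 Arg1 introns were higher, and they were the only called introns among the 27 of the 10 genes that had enough reads. Over all genes, 2.91% of 42547 introns were called higher and 2.02% lower. The introns of a gene share its transcripts and are not replicates, so the Arg1 introns restate the difference of the gene.

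Few genes with as many reads as Arg1 had as large a ratio. Of the 3117 genes with at least its number of reads, 3 (Arg1 included) had a ratio at least as high, and of all 8359 genes 30 did. Without its intron of most reads the ratio of Arg1 was 3.41 (2.56 to 4.61), and on that intron alone 3.69. The list of 8 eosinophil and mast cell markers summed to 106 with IL-10 against 71 without. Siglecf was the only marker of this list with a higher count, 86 against 48 (1.80, 1.25 to 2.63). Tpsb2 stood at 10 and 11 (0.916, 0.349 to 2.38), Cpa3 at 7 and 9 and Kit at 3 and 3. Ccr3, Prg2 and Epx were at 0, and Mcpt4 had 0 and 1 reads on a lone matched intron. The Ccr3 transcript used has 1 intron, where a gene needs at least 2 matched introns to be counted. The higher total came from Siglecf, and the list mixes eosinophil and mast cell markers, so its total does not describe either cell type. The part of such cells in the Arg1 difference was not tested.

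Arg2 (ENSMUSG00000021125.6) encodes the mitochondrial arginase, and its introns span positions 80231968 to 80256812 of chromosome 12. It had 31 reads after IL-10 and 23 in untreated cells (ratio 1.36, 0.766 to 2.44). Its most-read intron, intron 4, had 17 and 10, and each of the others had 5 reads or fewer in either library. The Arg1 ratio exceeded the Arg2 ratio 2.55-fold, and the exact conditional odds-ratio interval of that quotient (1.34 to 4.81) did not include 1. It was 1 of 9 such quotients, for pairs chosen with the values known and with no adjustment. Levels between genes were compared as reads per 1000000 spliced reads, divided by the number of introns of the best-covered coding transcript. On that scale the Arg1 level was 10.3 after IL-10 (9.10 to 11.6) and 2.96 in untreated cells (2.34 to 3.68), and the Arg2 level was 1.15 (0.784 to 1.64) and 0.850 (0.539 to 1.28). Arg1 was thus the more abundant arginase transcript in both libraries, with intervals that did not overlap in either.

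**Figure D1:**
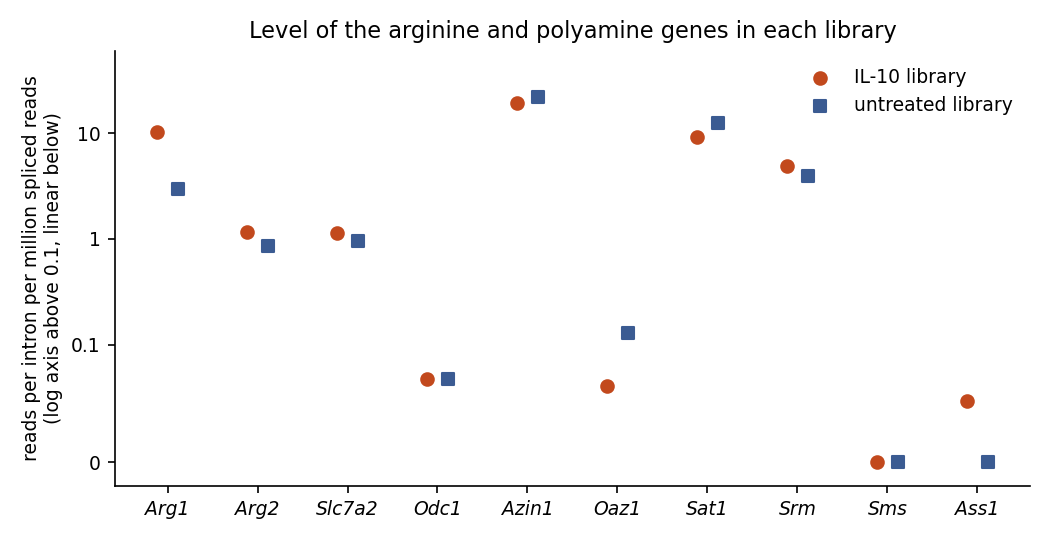
Level of the 10 genes (y axis, reads per intron per 1000000 spliced reads, log above 0.1 and linear below) in the IL-10 library (circles) and the untreated library (squares), with 1 library per group. Arg1 stands at 10.3 and 2.96, Azin1 at 19.3 and 22.1, and Odc1, Oaz1, Sms and Ass1 lie below 0.2 in both.

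Azin1 had the highest level of the 6 genes with enough reads in both libraries, 19.3 with IL-10 and 22.1 without. Odc1, Oaz1, Sms and Ass1 are left out of this order, since most of their joins have pseudogene copies, described below. Below it in the untreated library came Sat1 (12.5), Srm (3.97), Arg1 (2.96), Slc7a2 (0.964) and Arg2. In the IL-10 library the order was Azin1, Arg1 (10.3), Sat1 (9.12), Srm (4.86), Arg2 and Slc7a2 (1.14). Neighbours whose intervals overlapped were Arg1 and Sat1 in the IL-10 library, Srm and Arg1 in the untreated library, and Arg2 and Slc7a2 in both. The place of Sat1 depends on which introns are counted, because 3 of its 5 joins have an identical pseudogene copy. Over the other 2 introns, a comparison added after the values were seen, its level was 15.1 after IL-10 (12.5 to 18.1) and 16.8 in untreated cells (14.1 to 20), which places it above Arg1 in both libraries. With IL-10 that interval overlapped the one of Azin1 (18 to 20.7).

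Slc7a2 (ENSMUSG00000031596.15, introns from 41947912 to 42001691 of chromosome 8, mm9) encodes CAT-2, a transporter that carries arginine into macrophages. It had 48 reads after IL-10 and 41 in untreated cells (ratio 1.18, 0.761 to 1.83). Its reads were thin and spread over 11 introns, the most on intron 8 with 7 and 10, and no intron reached 20 reads. The ratio of Arg1 to that of Slc7a2 was 2.94 (1.76 to 4.92). The gene has a pair of alternative exons at the same place in the protein, known to give the CAT-2A and CAT-2B transporters. The reads fell on the upstream exon, with 1 and 2 reads into it and 0 and 2 out of it, and neither intron that leads to or from the downstream exon had a read in either library. Both exons are printed because these few reads separate them. They come from GENCODE M21 transcripts (GRCm38, plus strand), at chr8:40908056-40908195 and chr8:40908398-40908534, with 140 and 137 bases. Capitals mark the bases that differ in a global alignment, in which 84 bases (60% of the longer exon) were identical.
Upstream exon: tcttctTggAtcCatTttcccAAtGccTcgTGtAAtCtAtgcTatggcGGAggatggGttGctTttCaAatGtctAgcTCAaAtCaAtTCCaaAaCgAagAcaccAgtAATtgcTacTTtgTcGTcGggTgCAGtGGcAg
Downstream exon: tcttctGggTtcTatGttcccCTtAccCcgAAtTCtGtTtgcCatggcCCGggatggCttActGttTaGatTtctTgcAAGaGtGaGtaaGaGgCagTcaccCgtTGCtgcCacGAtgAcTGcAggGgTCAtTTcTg

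A group of 4 core genes of the pathway had almost no reads. Odc1, the ornithine decarboxylase gene, had 3 and 3. Oaz1, the antizyme gene, had 5 and 3, and Ass1, which encodes the enzyme that rebuilds arginine from citrulline, had 3 and 0. Sms, the spermine synthase gene, had 0 in either library, which allows up to 3 reads, or 0.782 and 0.776 reads per 1000000 spliced reads. For most joins of these genes the joined sequence also stands, without the intron, in an annotated pseudogene. A 40-base run around each join was looked up in the transcripts of all other genes, with up to 2 mismatches. Annotated pseudogenes held such a run for 9 of 11 Odc1 joins (20 pseudogenes in all), 3 of 4 Oaz1 joins, 10 of 10 Sms joins (7 pseudogenes) and 13 of 15 Ass1 joins. For Arg1, Arg2, Slc7a2 and Azin1 no join had a copy. Of the 32 joins of the 10 genes with an identical copy, 28 had 0 reads and 1 had at least 20. Of the 44 with no copy, 3 had 0 reads and the median was 16.5 reads over both libraries. These classes lie mostly in different genes, so class and gene cannot be told apart here. The 28 joins at 0 were 10 each in Sms and Ass1, 4 in Odc1, 3 in Oaz1 and 1 in Sat1. Join 1 of Sat1, with an identical copy, had 59 and 110 reads. Because most of their joins have copies, the values of Odc1, Oaz1, Sms and Ass1 are uncertain. The few joins of these genes with no copy were also low, with 0 and 1 reads on 2 joins of Odc1, 1 and 2 on 1 join of Oaz1 and 1 and 0 on 2 joins of Ass1, while Sms had no such join. The part of the copies in the low counts was not tested further, and low counts here do not show that transcripts are few. As examples, each run below is identical in at least 1 pseudogene. The capitals are the 2 bases on each side of the join in the coding sequence of the gene.
Odc1 join 3: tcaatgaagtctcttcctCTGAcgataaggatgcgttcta
Oaz1 join 2: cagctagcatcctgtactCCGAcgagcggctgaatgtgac

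**Figure D2:**
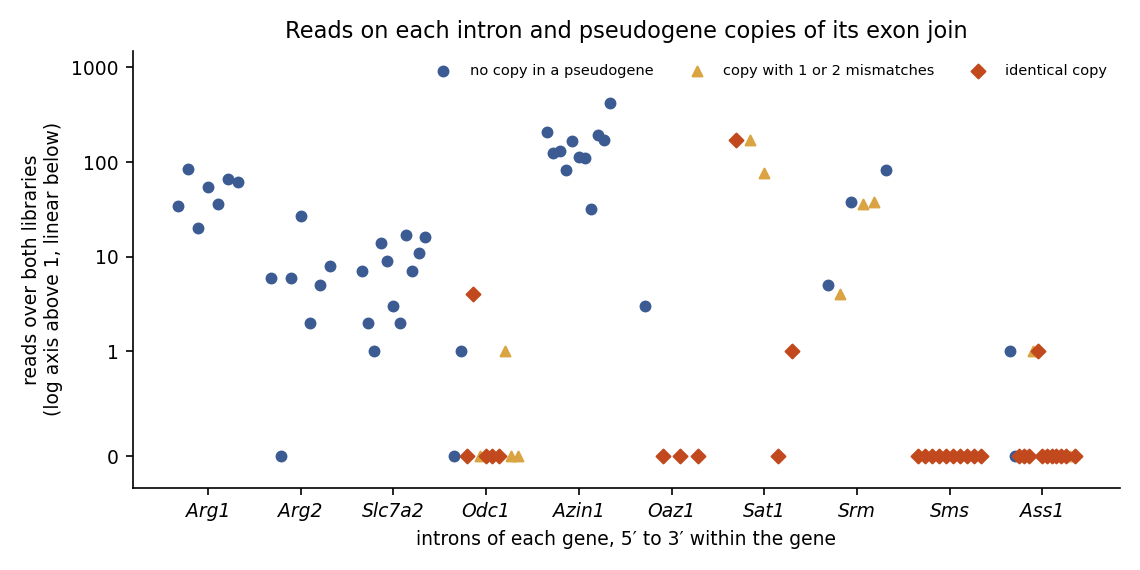
Reads over both libraries on each intron of the 10 genes (y axis, log above 1 and linear below; introns run 5′ to 3′ within each gene), by whether 40 bases around the exon join occur in an annotated pseudogene. Diamonds are identical copies, triangles copies with 1 or 2 mismatches and circles joins with no copy, and 28 of 32 diamonds lie at 0.

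Azin1 (ENSMUSG00000037458.15) encodes the antizyme inhibitor, a relative of ornithine decarboxylase that has lost its catalytic activity and binds antizyme in its place. It had 848 reads after IL-10 and 965 in untreated cells (ratio 0.885, 0.806 to 0.972), the most reads of the 10 genes. An interval below 1 was found for 13.1% of genes, and an interval above 1 for 12.9%. The introns of Azin1 did not share that difference. Intron 11, which precedes the last exon (positions 38420228 to 38421230 of chromosome 15, mm9), had 156 and 267 reads (0.589, 0.480 to 0.720). Without it, in a comparison added after the values were seen, the other introns summed to 692 and 698, a ratio of 0.999 (0.898 to 1.11). Intron 11 also had the most reads of the gene in each library, where the median of its other annotated introns with reads was 57.5 and 54. The neighbouring intron 10 had 84 and 85 (0.995, 0.727 to 1.36), and the introns from 1 to 10 ranged from 0.783 to 1.29, each with an interval that included 1. The joins of introns 10 and 11, from the GENCODE M21 transcript (GRCm38, minus strand of chromosome 15, coding), are printed side by side, and the capitals are the 2 bases on each side of the join.
Azin1 join 10: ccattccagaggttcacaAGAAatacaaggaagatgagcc
Azin1 join 11: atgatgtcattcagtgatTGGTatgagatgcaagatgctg

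Sat1 (ENSMUSG00000025283.15, introns from 151648211 to 151650645 of chromosome X, mm9) encodes the rate-limiting enzyme of polyamine breakdown. It had 188 reads after IL-10 and 246 in untreated cells (ratio 0.770, 0.633 to 0.935), and its introns did not share that difference evenly. Intron 1 had 59 and 110 reads (0.540, 0.387 to 0.748), intron 2 had 71 and 99 (0.722, 0.525 to 0.99), and intron 3 had 45 and 31 (1.46, 0.905 to 2.39). The intervals of introns 1 and 3 did not overlap, and intron 3 pointed the other way from introns 1 and 2. Introns 4 and 5, whose joins are identical in 2 pseudogenes, had 0 and 1 reads over both libraries. All 5 Sat1 joins had a pseudogene copy with up to 2 mismatches, so its values are uncertain. Without intron 2, which had the most reads, the gene's interval included 1 (0.802, 0.623 to 1.03). The quotient of the Sat1 ratio and the Azin1 ratio was 0.870 (0.700 to 1.08).

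Srm (ENSMUSG00000006442.10, introns from 147965896 to 147968967 of chromosome 4, mm9) encodes spermidine synthase. It had 112 reads after IL-10 and 93 in untreated cells (ratio 1.21, 0.913 to 1.61). Its 4 introns with at least 20 reads had ratios of 0.907 to 1.39, and the most-read, intron 6, had 48 and 35. Introns 1 and 2 had 2 and 3 reads and 3 and 1, and 3 of its 6 joins had a pseudogene copy with 1 or 2 mismatches.

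**Figure D3:**
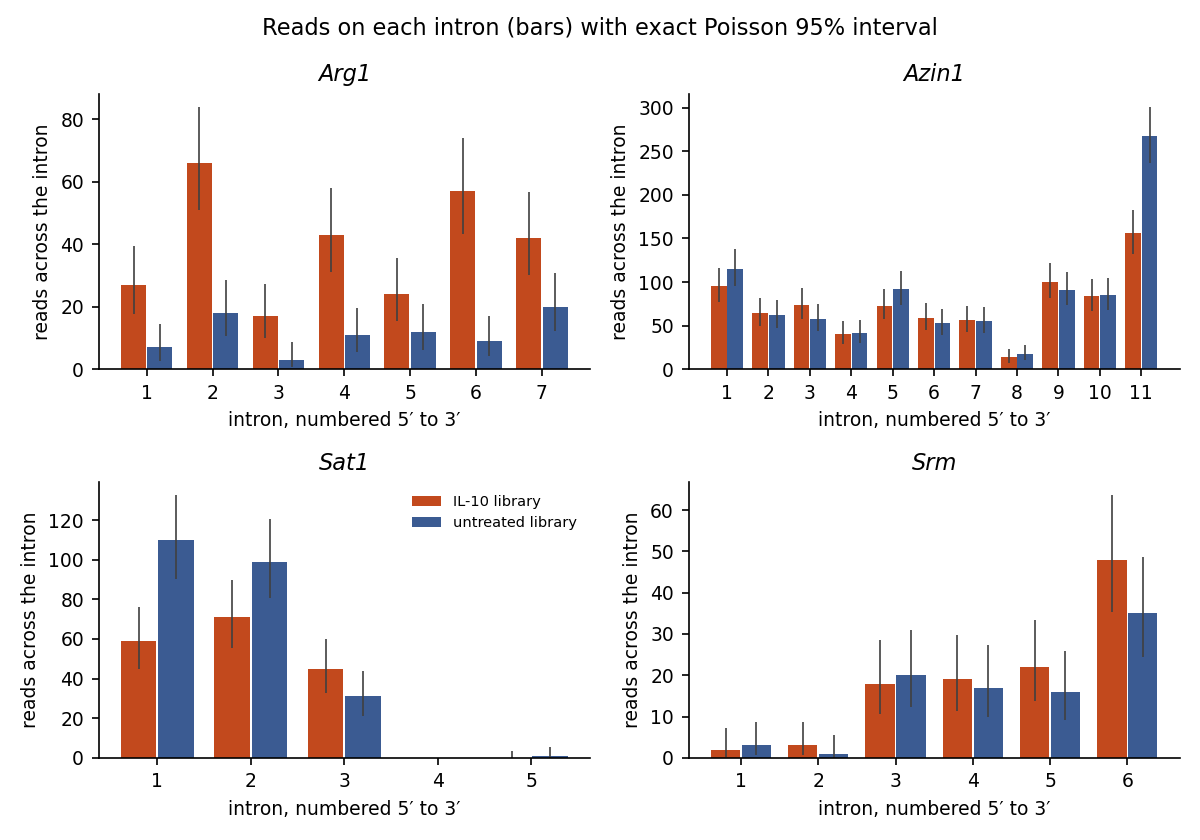
Reads on each numbered intron (bars) of Arg1, Azin1, Sat1 and Srm in the IL-10 and untreated libraries, with exact Poisson 95% intervals (lines) and introns numbered 5′ to 3′ on the x axis. Arg1 bars are higher with IL-10 on all 7 introns, Azin1 differs at intron 11 (156 and 267), and Sat1 at intron 1 (59 and 110).

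Alternative splicing was seen at Sat1 and Azin1, and none of it differed by 20 percentage points between the libraries. A splice site was examined where at least 20 reads in each library shared a donor or an acceptor. The 10 genes had 8 such sites with more than 1 junction, and 0 were called, where 0.211% of 8548 sites were called over all genes. Sat1 has a cassette exon of 110 bases (positions 151649664 to 151649773 of chromosome X, mm9) whose inclusion puts a stop codon in frame, in a transcript annotated as a target of nonsense-mediated decay. It is known to be used less when polyamines are abundant. At the upstream donor, 8 of 53 reads with IL-10 (15.1%, exact Clopper-Pearson interval 6.75 to 27.6%) and 3 of 34 without (8.82%, 1.86 to 23.7%) entered the exon. At the downstream acceptor, 5 of 50 (10%, 3.33 to 21.8%) and 2 of 33 (6.06%, 0.743 to 20.2%) left it. The intervals overlapped at both ends. The coding sequence is printed for both forms (GRCm38, minus strand of chromosome X). In the line for skipping, the capitals are the 2 bases on each side of the join. In the line for inclusion, the run ends 14 bases into the cassette exon and the capitals are the in-frame stop codon.
Sat1 exon skipped: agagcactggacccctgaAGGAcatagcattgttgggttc
Sat1 exon included: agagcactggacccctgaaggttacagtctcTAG

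Azin1 has a pair of acceptors 3 bases apart at intron 9, which keep the reading frame. The downstream acceptor took 13 of 113 reads with IL-10 (11.5%, 6.27 to 18.9%) and 6 of 97 without (6.19%, 2.30 to 13%). The capitals below are the 3 extra bases that the upstream acceptor adds, and most reads in both libraries used it.
Upstream acceptor: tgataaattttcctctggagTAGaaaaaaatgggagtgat
Downstream acceptor: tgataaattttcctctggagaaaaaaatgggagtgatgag

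A cassette exon near the 5′ end of Azin1 was entered by 11 of 75 reads with IL-10 (14.7%, 7.56 to 24.7%) and 10 of 73 without (13.7%, 6.77 to 23.8%). It was left by 8 of 72 and 10 of 73. Splice junctions outside the annotation were few: 5 in Azin1 with 6 and 13 reads, and 1 in Srm with 0 and 1.

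**Figure D4:**
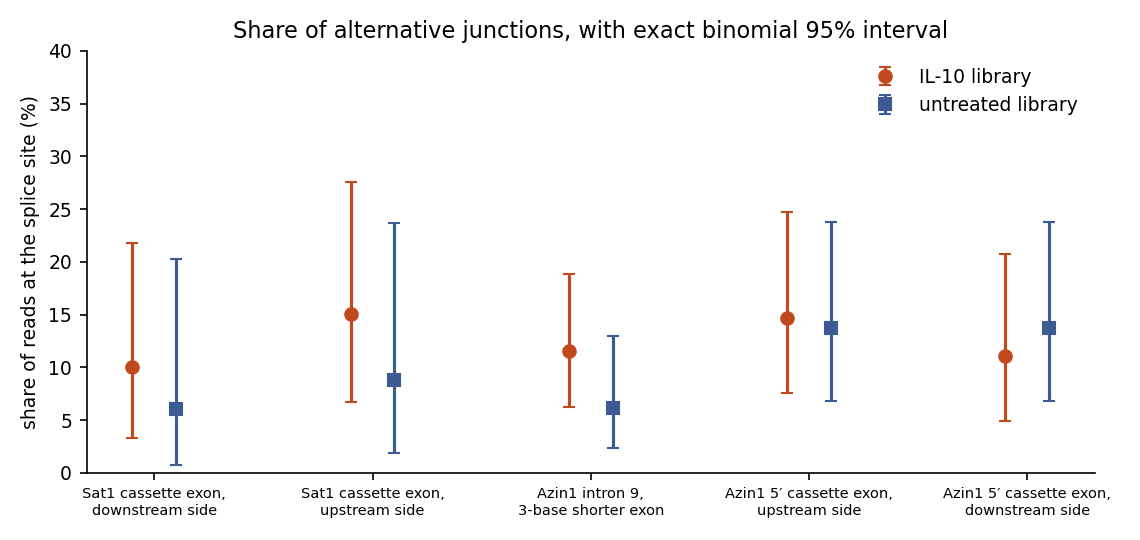
Share of reads at a splice site (y axis, percent) that used the alternative junction, for the Sat1 cassette exon, the intron 9 acceptor of Azin1 and the 5′ cassette exon of Azin1, in the IL-10 library (circles) and the untreated library (squares) with exact binomial 95% intervals. At each site the intervals of the 2 libraries overlap.

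The wider pathway held 43 other genes in 5 groups, of which 23 had at least 20 reads and 0 were called in either direction. Of the 23, 2 had intervals above 1 and 4 below, where 12.9% and 13.1% of all genes did, so both counts were near the background. The other 17 had intervals that included 1, and the median log2 ratio was 0.06. Nos2, the inducible nitric oxide synthase gene that competes with arginase for arginine, had 0 reads in both libraries. In all, 7 of the 9 urea cycle and nitric oxide genes had 0, where a gene needs at least 2 matched introns to be counted. Asl, which encodes the enzyme after Ass1 in arginine synthesis, had 392 and 426 (ratio 0.927, 0.806 to 1.07). Ddah2, which clears methylated arginine that inhibits nitric oxide synthases, had 19 and 10 (1.91, 0.847 to 4.61).

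Among 7 transporters of cationic amino acids 5 were measured, with ratios from 0.854 to 1.26. Slc7a7, which exports arginine as a partner of Slc3a2, had 263 and 226 reads (1.17, 0.978 to 1.41), and Slc3a2 had 2342 and 2180 (1.08, 1.02 to 1.15). Slc7a6 had 50 and 59 (0.854), and the mitochondrial ornithine carrier gene Slc25a15 had 15 and 12 (1.26), each with an interval that included 1. Among 10 genes for other fates of arginine and ornithine 7 were measured. Aldh18a1, which makes the precursor of proline and ornithine from glutamate, had 209 and 171 (1.23, 1.001 to 1.52). The creatine synthesis gene Gamt had 14 and 26 (0.542, 0.262 to 1.08).

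In the group of other polyamine enzymes and transporters, 7 of 13 were measured, and 4 of the 7 had an interval below 1 and 0 above, where 13.1% and 12.9% of all genes did. These are the same 4 genes counted above among the 23, where the count was near the background, so they are not a further result. Smox, the spermine oxidase gene, had 70 reads after IL-10 and 118 in untreated cells (ratio 0.598, 0.438 to 0.810). Its introns differed in direction: the most-read had 34 and 23 (1.49, 0.852 to 2.65), and the rest summed to 36 and 95 (0.382, 0.253 to 0.566), past the 2-fold threshold. Mtap, which recycles the methylthioadenosine left by polyamine synthesis, had 69 and 106 (0.656, 0.477 to 0.896). The others with intervals below 1 were Mat2b (0.820, 0.680 to 0.988), a regulatory subunit of methionine adenosyltransferase, and the lysosomal polyamine exporter gene Atp13a2 with 1608 and 1786 (0.907, 0.847 to 0.971). The rest of the measured genes in this group had intervals that included 1. They were Slc18b1 with 13 and 10 reads, Mat2a with 65 and 70 (0.935) and Atp13a3 with 416 and 372 (1.13). Amd1, which encodes the decarboxylase that supplies both spermidine and spermine synthase, had 0 reads. Pseudogene copies were looked up for the 10 genes alone, so this 0 does not show that Amd1 transcripts are few. Spermidine also supplies hypusine, a modified residue of the translation factor eIF5A. Its gene Eif5a had 662 and 731 (0.912, 0.820 to 1.01) and the deoxyhypusine synthase gene Dhps had 172 and 151 (1.15, 0.917 to 1.44).

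**Figure D5:**
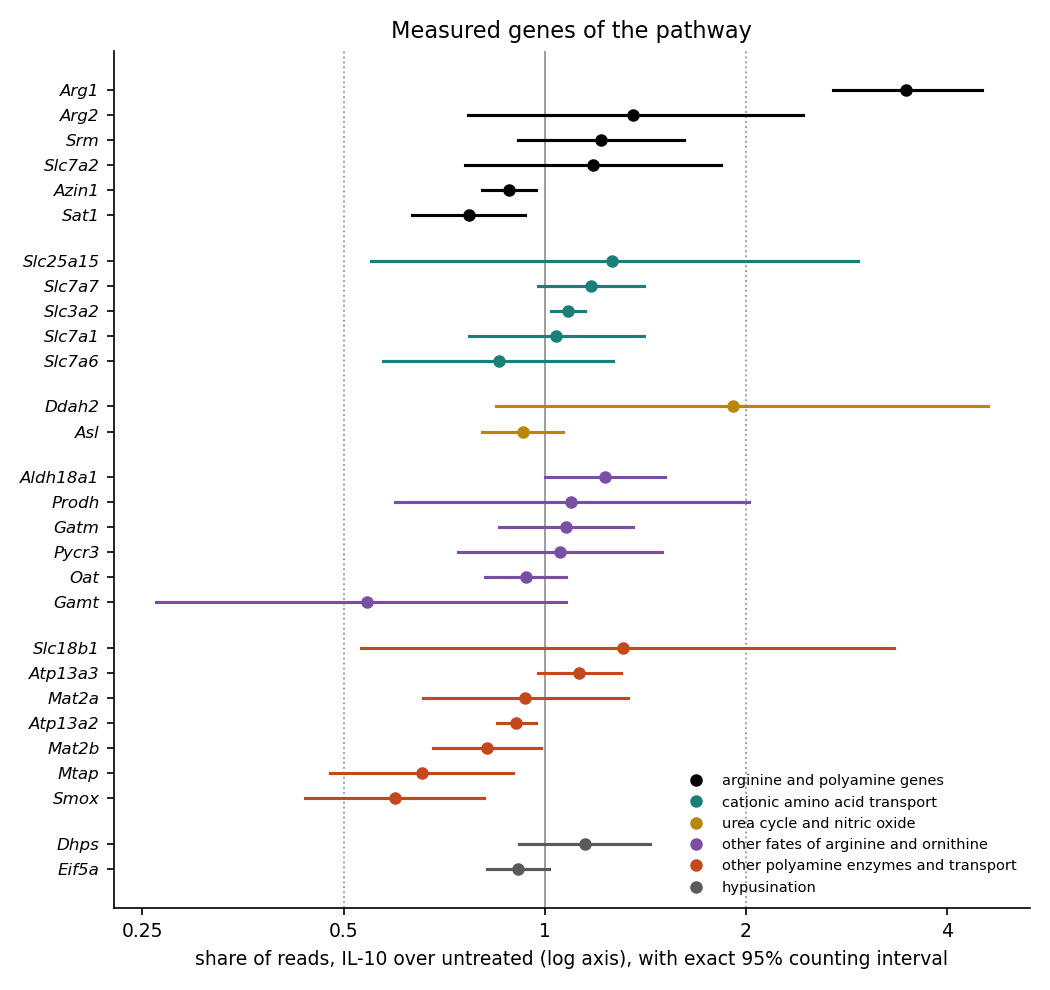
Ratio of the IL-10 to the untreated share of reads (x axis, log; points) with exact 95% counting intervals (lines) for the 6 measured members and other measured genes of the pathway, coloured by group; the solid line marks 1 and the dotted lines 0.5 and 2. Arg1 is the single gene whose whole interval (2.70 to 4.52) lies past 2.

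RefSeq promoter windows (GRCm38.p6) of 300 bases around the annotated start were matched for 5 of the 10 genes: Odc1, Oaz1, Sat1, Sms (2 windows) and Ass1. No window was available for Arg1, the single gene called, so its promoter was not searched. The STAT motif TTCNNNGAA, searched on both strands, was in 0 of the 6 windows and in 8.3% of 32851 windows of all genes. The E-box CACGTG was in 2 of 6, those of Ass1 and a window of Sms, and in 7.15% of all windows.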

How the data were processed

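The authors deposited, per the file headers, TopHat junction lists with a count of reads for each splice junction, unscaled, for 1 IL-10 and 1 untreated library. The genome build was mm9 and Cufflinks was also used, per the submitters' processing notes; versions are not given in the sources used here. A total of 131057 junctions were read, and 106738 (81.4%) were named from GENCODE M21 (GRCm38) where chromosome, strand and exact intron length matched and at least 2 introns of a gene shared an offset of up to 20 Mb. Junction coordinates are mm9. Introns of 1 gene alone were summed, divided by the library total, and compared as a ratio with an exact conditional binomial (Clopper-Pearson) 95% interval. Log2 ratios used a pseudocount of 0.5 reads. Introns under 50 bases were left out of transcript levels.

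The members and lists were chosen with earlier results of these data known. Named pathway genes were up to 3 measured genes per group with the largest absolute log2 ratio, and Nos2. Slc3a2, Mat2a, Mat2b, Atp13a2, Atp13a3 and Amd1 were named after their values were seen. A gene that this rule names is not reported here. Normalization with edgeR 4.0.16 (TMM factor 0.996) and DESeq2 1.42.0 (size factor 1.01) and the other alternatives are given at the end. Calls and intervals were checked on Poisson counts simulated from the gene means. Such counts hold no variation between libraries beyond counting error. Python 3.11.15, scipy 1.17.1 and R 4.3.3 were used.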

Additional observations from a re-analysis of the deposited data

How the results depend on the processing

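Arg1 stayed the single called member, with 0 lower, under all 13 alternatives, and its ratio ranged from 3.41 to 3.69. Many of these were not separate checks of Arg1. The settings of minimum, fold, interval level, overhang and junctions outside the annotation left its reads and ratio unchanged. Over all genes, 146 were higher and 125 lower. These counts were 37 and 10 with at least 100 reads, 357 and 335 at a fold of 1.5, and 53 and 29 at a fold of 3, and the lower count was 190 with no minimum of reads and 77 with a 99% interval. Member introns called lower numbered 0, or 2 at a fold of 1.5. At that fold Smox (0.598) and Mtap (0.656) were also called. Azin1 stood at 0.589 on its intron with the most reads and at 0.999 without it. Without their intron with the most reads, a setting chosen after seeing the data, Smox (0.382) and Gamt (0.356) were called lower. With lone matched junctions added, also after seeing the data, Oaz2 had 8 and 8 reads. Splice site calls in the members stayed at 0 under the 4 alternatives run. With 31 and 23 reads on Arg2 and 48 and 41 on Slc7a2, the intervals were wide, 0.766 to 2.44 and 0.761 to 1.83. Ratios within these ranges are not excluded. No paired analysis was possible because each group has 1 library.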
